A study of Mus musculus with 4 samples.

Results

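Goblet cells were picked out of the control epithelium of the adult mouse small intestine by the mRNA of 4 of their secreted proteins. Barcodes were kept when they held 1000 counts or more over 300 genes or more and no more than 30% of those counts came from mitochondrially encoded genes. A kept control cell was called a goblet cell when Muc2, Fcgbp, Clca1 and Spink4 together had at least 4 counts. The rule was met by 101 of 1289 kept control cells, 59 of 774 in control library 1 and 42 of 515 in control library 2. All 4 libraries of the series held 3304 kept cells. The remaining 1188 control cells, 715 and 473, are the comparison throughout and are called other cells.

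Goblet cells are secretory epithelial cells that fill an apical store of granules with the gel-forming mucin MUC2 and release it to form intestinal mucus. Making this large, disulphide-linked and heavily glycosylated protein needs a wide endoplasmic reticulum, protein disulphide isomerases and Golgi glycosyltransferases. They descend from crypt progenitors in which the factor ATOH1 sets the secretory lineage, which they share with Paneth cells, and SPDEF promotes their maturation.

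The control mice carried the loxP-flanked alleles Lats1fl/fl and Lats2fl/fl without Cre, and the Lats-deleted mice carried the same alleles with Lrig1-CreERT2. LATS1 and LATS2 are kinases of the Hippo pathway, and Lrig1 marks crypt cells, where the tamoxifen-activated Cre is driven. Mice of both groups were C57BL/6J adults given 2 mg of tamoxifen intraperitoneally, so the controls also carry the floxed alleles and the drug, and cells were taken at day 7. Live cells positive for EpCAM and negative for CD45 and TER119 were sorted and barcoded in droplets with inDrop. There were 2 libraries a group. Whether they came from separate animals is not stated, so p-values speak only of these libraries. Those of edgeR rest on how the difference between cell classes varied between the 2 control libraries, with 1 spread shared by all genes. The 2 control files held 2872497 and 2247269 counts. Kept control cells had medians of 1708 and 1995 counts. Lats1 was at 20.6 and 32.6 CPM (counts per 1 M counts of the summed cells) over all kept control cells and at 7.58 and 9.78 CPM over Lats-deleted cells, and Lats2 was at 8.11 and 9.77 against 29.8 and 21.3 CPM. Goblet cells held 3 and 1 counts of Lats1. The exons removed by Cre are not given in the sources used here, so these levels check the labels only in part. The 2 control libraries shared 4 barcode names among kept cells, none of them a goblet cell of library 1.

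The stretches of 250 bases before the transcription start are shown for the gel-forming mucin Muc2, its mucus partner Fcgbp, the disulphide isomerase Agr2 and the lineage factors Atoh1 and Spdef, because these genes mark the cells or were far higher in them than in other cells. They come from RefSeq on GRCm38.p6, where 5 of 9 genes looked up had an entry. Muc2 is at chr7:141690090-141690339 and Fcgbp at chr7:28070986-28071235. Agr2 is at chr12:35992675-35992924 and Atoh1 at chr6:64728875-64729124, all on the plus strand. Spdef is at chr17:27728952-27729201 on the minus strand, and each sequence reads 5′ to 3′ towards the gene. Capitals mark 3 short motifs searched on both strands.
Muc2: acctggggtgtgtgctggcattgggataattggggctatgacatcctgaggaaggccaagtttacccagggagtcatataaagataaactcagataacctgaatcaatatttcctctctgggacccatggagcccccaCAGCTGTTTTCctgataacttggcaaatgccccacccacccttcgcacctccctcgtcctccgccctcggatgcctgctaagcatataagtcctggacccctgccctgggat
Fcgbp: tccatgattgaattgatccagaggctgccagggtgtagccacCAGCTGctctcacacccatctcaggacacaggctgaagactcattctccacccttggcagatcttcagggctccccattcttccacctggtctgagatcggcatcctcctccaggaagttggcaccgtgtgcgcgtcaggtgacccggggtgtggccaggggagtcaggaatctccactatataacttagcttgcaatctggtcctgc
Agr2: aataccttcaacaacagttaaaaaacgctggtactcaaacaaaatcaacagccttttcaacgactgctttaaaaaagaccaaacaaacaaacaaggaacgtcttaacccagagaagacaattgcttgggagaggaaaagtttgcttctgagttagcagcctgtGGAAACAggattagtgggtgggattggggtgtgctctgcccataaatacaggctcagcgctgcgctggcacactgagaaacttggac
Atoh1: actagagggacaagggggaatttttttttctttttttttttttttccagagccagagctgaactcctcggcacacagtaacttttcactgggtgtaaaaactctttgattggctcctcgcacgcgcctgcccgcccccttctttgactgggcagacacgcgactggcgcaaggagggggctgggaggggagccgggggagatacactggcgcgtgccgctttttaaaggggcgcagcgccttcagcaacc
Spdef: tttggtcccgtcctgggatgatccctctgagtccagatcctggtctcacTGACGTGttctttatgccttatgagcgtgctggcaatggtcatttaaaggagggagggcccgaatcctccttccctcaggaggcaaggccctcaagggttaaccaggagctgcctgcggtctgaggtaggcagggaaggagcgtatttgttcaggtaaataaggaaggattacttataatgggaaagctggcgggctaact
The E-box CAGCTG, of the kind that basic helix-loop-helix factors such as ATOH1 bind, was found in the Muc2 stretch 112 bases and in the Fcgbp stretch 208 bases before the start. It occurred in 13.0% of all 32851 RefSeq promoter stretches of this length. The forkhead core TGTTTNC was found in Muc2, starting 108 bases before the start and overlapping the E-box, and on the reverse strand in Agr2 at 87 bases, and it occurred in 17.8% of all stretches. The unfolded protein response element core TGACGTG was found in Spdef at 201 bases and occurred in 1.65% of all stretches. Atoh1 held none of the 3 motifs. These matches describe letters and carry no measurement of binding.

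Most cells that passed the rule lay far above its threshold. In library 1, 624 kept cells had no count of the 4 rule genes, 75 had 1, 12 had 2 and 4 had 3, while only 3 cells had 4 to 7 and 54 had 20 or more. Library 2 had 392, 61, 15 and 5 cells below the threshold in the same order, 3 cells with 4 to 7 and 38 with 20 or more. The median goblet cell had 101 rule counts in library 1 and 236.5 in library 2, and the highest had 814 and 1213. All 4 rule genes had a count in 47 of 59 and 36 of 42 goblet cells.

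Cells next to the threshold were unlike the rest. The 3 cells of library 1 just inside it, with 4, 5 and 6 rule counts, had 0, 1 and 0 counts of Zg16. The 3 of library 2, with 4, 4 and 5 rule counts, had 31, 21 and 18 counts of Zg16 and 22.6%, 28.4% and 28.8% mitochondrial counts, against a median of 2.63% over the goblet cells of that library. Just outside, 1 cell of library 2 with 3 rule counts had 38 counts of Zg16 and 10 of Tff3, and 22.6% mitochondrial counts. The other 8 control cells with 3 rule counts had 0 to 4 counts of Zg16.

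Markers outside the rule bore the goblet label out in most cells, but not in 4 of 5 Paneth-rich cells that passed it. Those 4 had 30.9% to 47.9% of their counts from Paneth genes and 0 or 1 count of Zg16, and their values go against the name. They stay in the class because the rule sets it, and the comparison without the 5 is given further on. Zg16, a lectin of the mucin granules that binds bacterial cell walls, and Tff3, the trefoil peptide secreted with MUC2, had counts in 52 and 58 of the 59 goblet cells of library 1 and in all 42 of library 2. A single count is a low bar, as 18.5% and 21.1% of other cells also had Zg16. At least 10 Zg16 counts were found in 49 and 40 goblet cells, none of them Paneth-rich, and in 0 and 1 other cells. Clusters of the control cells built without the 4 rule genes put 89 of the 101 in 1 cluster of 95 cells. Its leading genes outside the rule included Tff3, Zg16 and Defa24, and all 5 Paneth-rich cells were in it. The other 12 were spread over 5 clusters, 5 of them in a cluster led by histone genes with Gkn3 and Stmn1, and 1 in a cluster led by Sst and other hormone genes. Goblet cells had median totals of 2106 and 2251.5 counts, against 1681 and 1979 in other cells. The median mitochondrial share was 4.46% and 2.63% in goblet cells and 9.80% and 7.06% in other cells.

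**Figure D1:**
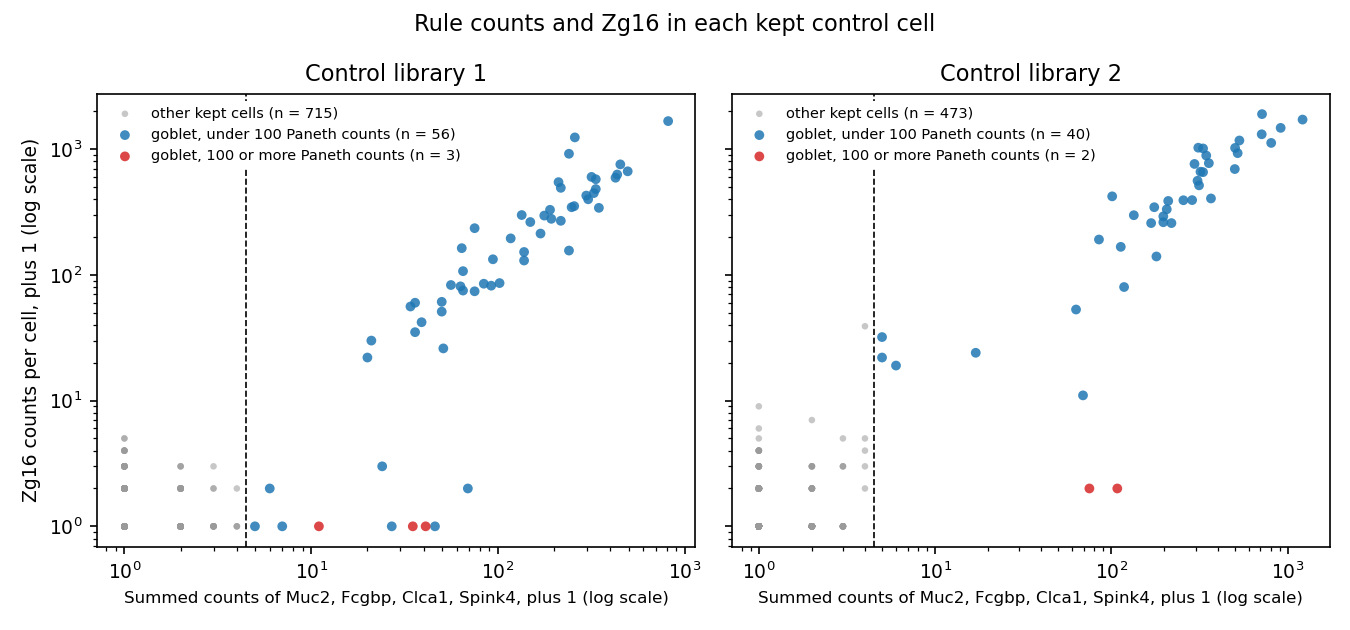
Summed counts of the 4 rule genes (x, plus 1, log scale) against Zg16 counts (y, plus 1, log scale) in each kept cell of both control libraries, with the rule's threshold as a dashed line. Most goblet cells lie far to the right of the line with many Zg16 counts, and the 5 goblet cells with 100 or more Paneth counts, in red, have 0 or 1 Zg16 count.

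To compare the classes, counts were summed per library over goblet cells and over other cells and tested with edgeR's quasi-likelihood test, with the library as a block. The 4 rule genes set the classes and are described without a test. The cells come from the same counts as the test, so its p-values describe how the classes differ. Of 6915 genes tested, 476 (6.88%) were higher and 488 (7.06%) lower in goblet cells at a Benjamini-Hochberg adjusted p under 0.05. The median log2 fold change over all genes tested was -0.07. The 2 classes did not overlap in either direction for 58.2% of genes. A gene could enter through its level in 1 class only, so the counts of list members below stand beside these shares. CPM of summed cells are scaled by TMM (edgeR's trimmed mean of M-values). Each standard error (SE) was worked back from the log2 fold change and its edgeR p-value, so it is no separate measure of spread.

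Mucus genes took up a large share of the mRNA counted in goblet cells. Zg16 alone made up 11.5% of goblet counts in library 1 and 18.0% in library 2, and 0.012% and 0.018% of the counts of other cells. With Tff3 and the 4 rule genes it made up 20.6% and 31.5%. These are shares of counts and are not scaled by transcript length. Of the 10 genes with the highest share, Zg16 was followed by Fcgbp (3.13% and 4.42%), Tff3 (2.12% and 3.60%), Clca1 (1.88% and 2.88%) and Muc2 (1.64% and 2.28%). The other 5 were the defensin-type genes Defa24, Gm15284, Gm15292, Defa23 and Defa-rs7. Of the kept cells' Defa24 counts 95.5% and 96.3% came from 5 Paneth-rich cells that passed the rule, described further on.

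The rule genes themselves were far above other cells in both libraries. Muc2, the gel-forming mucin (ENSMUSG00000025515.15, chromosome 7, 141690340 to 141754693 on GRCm38), was at 17269 and 29592 CPM in goblet cells and at 14.8 and 16.1 CPM in other cells. Fcgbp, a large mucus protein with repeated von Willebrand type domains (chromosome 7, 28071236 to 28120862), was at 32892 and 57353 against 29.6 and 43.7 CPM. Clca1, a metalloprotease that processes mucus (chromosome 3, 145003817 to 145032776), was at 19758 and 37432 against 18.4 and 16.1 CPM. Spink4, a Kazal-type inhibitor family member (chromosome 4, 40920052 to 40931395), was at 3966 and 4230 against 2.96 and 5.36 CPM. Muc2, Fcgbp and Clca1 stood higher in library 2 than in library 1, and Spink4 was about level.

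Genes of mucus and granules that the rule did not use were higher almost throughout. Of 31 measured members of the mucus and granule list 27 were tested, 25 were higher (6.88% over all genes), none was lower, and the median log2 fold change was 5.38. Zg16 (ENSMUSG00000049350.6, chromosome 7, 127050156 to 127087328) was at 120583 and 233235 CPM in goblet cells and at 100.1 and 151 CPM in other cells. Its log2 fold change was 10.41 (SE 1.00, edgeR adjusted p = 4.28e-23). Tff3 (ENSMUSG00000024029.4, chromosome 17, 31125306 to 31129646) was at 22232 and 46706 against 15.99 and 22.2 CPM. The log2 fold change of Tff3 was 10.73 (SE 0.846, edgeR adjusted p = 3.64e-34). Agr2, the disulphide isomerase needed to make MUC2 (ENSMUSG00000020581.11, chromosome 12, 35992907 to 36004087), was at 3363 and 3681 against 4.15 and 6.13 CPM (log2 fold change 9.40, SE 0.662).

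Several less studied members were higher by a similar size. The chemokine Ccl6 was at 2018 and 3224 CPM in goblet cells and at 2.96 and 4.60 CPM in other cells, a log2 fold change of 9.37 (SE 0.654), and had counts in 40 of 56 and 33 of 40 goblet cells with under 100 Paneth counts. In other cells it had a count in 5 of 715 and 5 of 473. Ccl6 was not particular to ordinary goblet cells, as every Paneth-rich cell had it, with medians of 20 and 26.5 counts against 2 and 6. Those cells were deeper, with median totals of 6439 and 10185.5 counts against 1861.5 and 2251.5. Without them its log2 fold change was 9.09. Capn9, a calpain of the gut, was at 278 and 529 CPM against 1.18 and 0.766, a ratio of summed counts of 386 (95% counting interval 128 to 1906). Bcas1 had a log2 fold change of 7.45, Lrrc26, a subunit of a goblet cell potassium channel, one of 6.43, and the protease Bace2 one of 6.51. Ramp1, a receptor activity-modifying protein of the CGRP receptor, and the tryptase Tpsg1 were higher by ratios of 276 (90.3 to 1375) and 342 (90.0 to 2897). The 2 classes did not overlap for any of these genes, but this was a condition for naming the largest increases. It held for 58.2% of all genes tested.

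Genes outside the mucus list among the 20 largest increases without the Paneth-rich cells were of mixed function. They included Atoh1 and Clps, described further on. Ido1, the enzyme that opens tryptophan towards kynurenine, was at 425 and 1413 CPM against 2.37 and 1.53 (log2 fold change 8.53, SE 0.617). Psca, a GPI-anchored surface protein, was at 170 and 386 against 0.592 and 0.766 CPM, but 76.3% of its goblet counts in library 2 came from 3 cells. Btn1a1 was at 124 and 305 CPM against 0 and 1.53, a ratio of 302 (79.1 to 2571). Rgs2, a regulator of G protein signalling, was at 325 and 702 against 6.51 and 3.07 CPM (log2 fold change 6.54). Nupr1, a stress-induced chromatin protein, had a log2 fold change of 6.88 and counts in 7 of 56 and 12 of 40 goblet cells.

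Enzymes that build mucin sugar chains were higher in part. Of 41 measured members of the mucin glycosylation list 34 were tested. Of these 16 were higher (6.88% over all genes) and 1 lower (7.06%), with a median log2 fold change of 1.15. DESeq2 called 8 higher and 1 lower. Gcnt3, which makes branched mucin core structures, was at 549 and 1190 CPM in goblet cells and at 10.1 and 11.5 CPM in other cells (log2 fold change 6.22, SE 0.511, edgeR adjusted p = 1.62e-31). Galnt12 and Galnt3, which attach the first sugar, had log2 fold changes of 6.40 and 3.87. C1galt1, which extends it to core 1, had one of 2.52, and the sulphotransferase Chst4 had one of 3.70. Papss2, which makes the sulphate donor, went the other way, at 533 and 91.5 CPM in goblet cells and 2702 and 2895 CPM in other cells (log2 fold change -3.40). Gcnt1, B3gnt6 and St6galnac1 had no count in any goblet cell. The calls of Chst4, Galnt3 and C1galt1 were lost when the 60 goblet cells with at least 3 Paneth counts were left out, at log2 fold changes of 2.57, 2.59 and 1.64.

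The folding and unfolded protein response list was also raised in part. Of 38 tested members 14 were higher (6.88% over all genes) and none lower, with a median of 0.90. DESeq2 called 7 higher and 0 lower. Ern2, the gut form of the stress sensor IRE1 known to act in goblet cells, was at 332 and 336 CPM in goblet cells and at 1.78 and 4.60 CPM in other cells (log2 fold change 6.72, SE 0.527). Txndc5, a disulphide isomerase, was at 943 and 1352 against 15.99 and 29.1 CPM (log2 fold change 5.69). Qsox1, a sulphydryl oxidase, had a log2 fold change of 4.97 and Dnajc10, a reductase chaperone, one of 3.42. The membrane-bound factors Creb3l1 and Creb3l4 followed, Creb3l1 with a log2 fold change of 5.23 and Creb3l4 with a ratio of 98.6 (22.9 to 889). In contrast, general machinery of translocation and transport from the endoplasmic reticulum to the Golgi was near the background, with 5 of 49 tested members higher, 1 lower and a median of 0.57. Its 5 were Ergic1 (2.57), Tmed3 (2.40), Tmed9 (1.93), Mia3, the loader of bulky cargo (1.79), and Tm9sf3 (log2 fold changes, the last at 758 and 783 against 245 and 303 CPM). Sar1b, a coat GTPase used for lipoprotein export, had one of -1.45. All 6 calls of this list were lost in the 27 and 14 goblet cells with under 3 Paneth counts, where the log2 fold change was 2.47 for Ergic1, 1.91 for Tmed3, 1.92 for Tmed9, 1.599 for Mia3, 0.98 for Tm9sf3 and -1.70 for Sar1b. Those of Tmed9, Tm9sf3, Sar1b, Tmed3 and Mia3 were also lost in 1 to 3 other alternatives.

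Of 16 tested members of the exocytosis list 7 were higher (6.88% over all genes), none was lower and 9 did not pass. The median log2 fold change was 0.98. Those higher included 4 small GTPases of granule release. Rab27a was at 263 and 386 CPM in goblet cells and 7.70 and 11.5 CPM in other cells (log2 fold change 5.06, SE 0.462, edgeR adjusted p = 1.38e-25). Its paralog Rab27b had a log2 fold change of 4.97, Rab3d one of 4.38 and Rab15 one of 5.84. The calcium sensor Syt7 had one of 3.65. Rab26 and Sytl1 had no count in any goblet cell.

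The ion and fluid transport list split, with 3 of 17 tested members higher (6.88% over all genes) and 5 lower (7.06%). DESeq2 called 2 higher and 3 lower. The ATP-gated channel P2rx4 was at 209 and 346 CPM in goblet cells and 16.6 and 29.1 CPM in other cells (log2 fold change 3.60). The protease Tmprss2 and the sugar carrier Slc50a1 stood at 379 and 356 against 115 and 112 CPM and at 85.03 and 50.8 against 13.03 and 14.6 CPM, and their calls were lost in 2 and 4 of 12 alternatives, DESeq2 among those of Slc50a1. The anion exchangers Slc26a6 and Slc26a3 had log2 fold changes of -2.94 and -2.44. With at least 2000 counts per cell the call of Slc26a6 was lost.

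**Figure D2:**
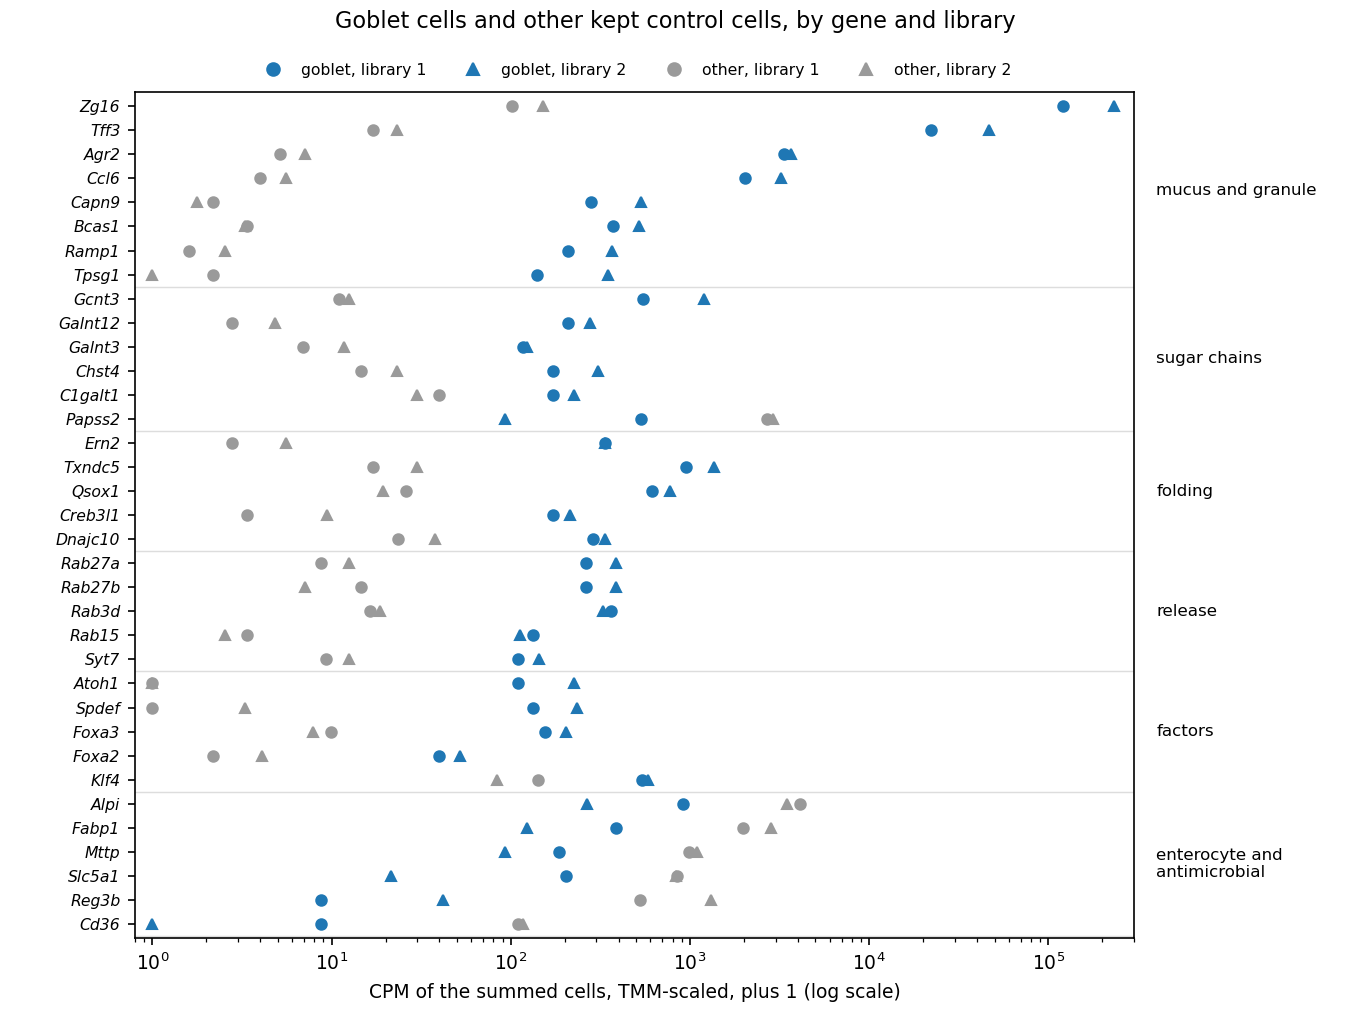
CPM of summed cells (x, TMM-scaled, plus 1, log scale) for named genes grouped by role, with goblet cells in blue and other cells in grey and 1 symbol per control library. Genes of mucus, folding, release and lineage control lie to the right in goblet cells in both libraries, while Papss2 and the enterocyte and antimicrobial genes lie to the left.

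Atoh1 and Spdef, factors of the secretory lineage, were detected at low counts and almost only in goblet cells. Atoh1 (ENSMUSG00000073043.5, chromosome 6, 64729125 to 64731245) had 14 and 22 counts in goblet cells, which is 108 and 224 CPM, and no count in the 715 and 473 other cells. It was at least 158-fold higher, with the other cells set to a floor of 3 counts over both libraries. Its counts came from 8 of 59 and 13 of 42 goblet cells, so at this depth most goblet cells had none. The edgeR adjusted p was 6.80e-22, and with DESeq2 the call was lost, at an adjusted p of 0.139 (1.02e-22 to 0.139 over the alternatives). Spdef (ENSMUSG00000024215.14, chromosome 17, 27714352 to 27728955) was at 131 and 234 CPM against 0 and 2.299, a ratio of summed counts of 175 (55.8 to 886), with an edgeR adjusted p of 1.71e-21.

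The forkhead factors followed with smaller differences. Foxa3 was at 155 and 203 CPM in goblet cells and 8.88 and 6.90 CPM in other cells, a log2 fold change of 4.44 (SE 0.552). Foxa2 had a log2 fold change of 4.36 on 5 counts in each library's goblet cells, and Foxa1, at 23.2 and 30.5 against 10.1 and 4.60 CPM, did not pass (edgeR adjusted p = 0.281). Klf4, a factor of goblet cell differentiation, was at 541 and 580 against 141 and 82.8 CPM (log2 fold change 2.36, SE 0.414). In all, 6 of 9 tested members of the lineage factor list were higher (6.88% over all genes) and none lower. Hes6 (log2 fold change 1.25) and Sox4 (1.31) did not pass. Gfi1, which was under the filter on low counts, had counts in 3 of 56 and 4 of 40 goblet cells and in 1 other cell of each library. Dll1, Dll4 and Insm1 were also under it. Without the filter Gfi1 and Dll4 were called (edgeR adjusted p = 0.00124 and 0.00295, in the only alternative that tested them), and the endocrine factors Neurog3 and Nkx2-2 had no count in any goblet cell. In other cells Neurog3 had 10 and 1 counts and Nkx2-2 had 4 and 5. Goblet cells held far fewer counts in all, so this absence says little.

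Of the Notch and absorptive lineage list 1 of 10 tested members was higher and 1 lower, near the 6.88% and 7.06% of all genes. They were the homeobox gene Cdx1 (log2 fold change 1.29) and the villus factor Maf (-1.72). The call of Cdx1 was lost in 4 alternatives, DESeq2 among them. Hes1, the Notch target that opposes Atoh1, was at 23.2 and 102 CPM in goblet cells and 27.2 and 34.5 CPM in other cells and did not pass. Neither Gata4 (-0.79), Klf5 (-0.41) nor Hnf4g passed.

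Enterocyte genes were lower almost throughout. Of the 28 measured members of the enterocyte list 27 were tested and 25 were lower (7.06% over all genes) and none higher, with a median log2 fold change of -2.62. Alkaline phosphatase Alpi was at 912 and 264 CPM in goblet cells and 4103 and 3495 CPM in other cells (log2 fold change -2.88, SE 0.504). Fabp1, a fatty acid carrier, was at 387 and 122 against 1980 and 2820 CPM, and Mttp, which loads lipoproteins, at 186 and 91.5 against 984 and 1097 CPM. The sugar transporter Slc5a1 and the protease Mep1b had log2 fold changes of -3.03 and -3.43. Outside the list, the carbonic anhydrase Car2, the fatty acid receptor Cd36 and the acyltransferase Mogat2 had 1, 1 and 2 counts in all goblet cells, with ratios of summed counts of 0.0287, 0.0391 and 0.0450. Of the 8 genes named here, goblet cells of library 1 stood above those of library 2 in all but Mogat2. With at least 2000 counts per cell the calls of Alpi and Cd36, among these 8 genes, were lost. The enterocyte list made up 1.14% of goblet counts in library 1 and 0.417% in library 2, against 4.90% and 4.79% in other cells.

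Antimicrobial genes divided by family member. Of 8 tested members of the Reg and Mptx1 list 6 were lower (7.06% over all genes) and 2 higher (6.88%). Reg3b was at 7.73 and 40.7 CPM in goblet cells and 526 and 1314 CPM in other cells (log2 fold change -5.33, SE 0.640), and the lectin Reg3g and the peptide Leap2 had log2 fold changes of -4.50 and -3.27. Reg1 was at 3108 and 437 against 8044 and 9138 CPM (-2.79), a call lost with at least 2000 counts per cell. Mptx1, a pentraxin of the small intestine, was the reverse, at 1013 and 397 CPM against 3.55 and 1.53 (log2 fold change 8.03, SE 0.593). Reg4 was at 572 and 407 against 49.7 and 2.299 CPM (log2 fold change 4.67). In library 1, 81 of its 84 counts in other cells were in 1 cell, and the log2 ratios by library were 3.51 and 7.12. Without goblet cells of at least 3 Paneth counts the log2 fold change was 2.33 and the call was lost.

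Of 7 tested enteroendocrine genes, 5 were called, 3 as lower and 2 as higher (13.9% over all genes in either direction), and DESeq2 called 1 as lower and 0 as higher. Among those lower was Gip, which had no count in goblet cells and 651 and 318 CPM in other cells, at least 36.8-fold lower, with the goblet cells set to the floor of 3 counts. Its call was lost with DESeq2, at an adjusted p of 0.350, the highest over the alternatives. Its 1100 and 415 counts came from 10 cells in each library. The hormone gene Sst was at 0 and 20.3 against 52.7 and 955 CPM, and Cck, the third, at 0 and 10.2 against 16.6 and 101 CPM. Sct, the secretin gene, passed as higher (log2 fold change 2.12), yet it was higher in library 1 and lower in library 2, at 518 and 142 against 20.7 and 221.5 CPM. In library 1, 83.6% of its goblet counts came from 3 cells. Pcsk1, a prohormone convertase, was the other gene that passed as higher, on 3 and 6 goblet counts (log2 fold change 2.67).

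Of 7 tested tuft genes 1 was higher (6.88% over all genes), the surface glycoprotein Cd24a (log2 fold change 2.13), and 1 was lower (7.06%). The call of Cd24a was lost with at least 2000 counts per cell and without goblet cells of at least 3 Paneth counts. Dclk1 and Kctd12 did not pass. None of 8 tested stem genes and none of 18 tested cell division genes passed in either direction. At an unadjusted edgeR p under 0.05, 1 stem gene was higher (Sox9) and 1 lower (Igfbp4), and no division gene was either. DESeq2 also called 0 in both lists, whose median log2 fold changes were 0.23 and -0.05. The stem marker Lgr5 was at 54.1 and 0 CPM in goblet cells and 20.1 and 19.2 CPM in other cells. Sox9, Smoc2, Cdca7, Igfbp4 and the division genes H2afz, Ccna2, Pcna and Ccnb1 did not pass. In the leukocyte list, Lyz2 alone was higher of 3 tested, Coro1a and Ptprc did not pass, and 12 of 17 members, Cd3e and Tyrobp included, had no count in any goblet cell. No stromal or erythroid gene was high enough to be tested.

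**Figure D3:**
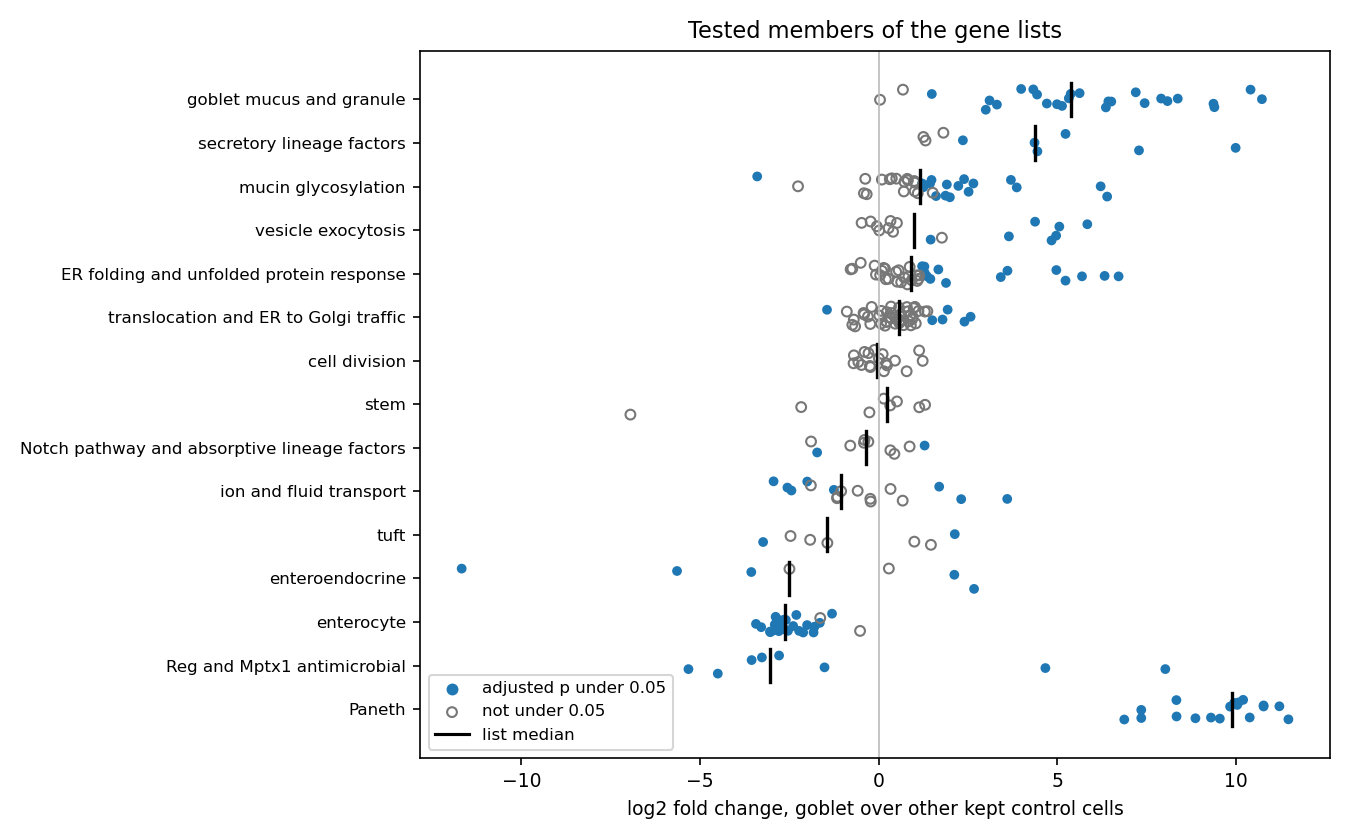
Log2 fold change of goblet over other cells (x) for each tested member of 15 gene lists (rows), filled where the adjusted p was under 0.05, with a bar at the list median. Mucus, lineage factor and Paneth members lie to the right, enterocyte members to the left, and division and stem members around 0.

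The goblet cells were not alike. Zg16 ranged from 0 to 37.4% of a cell's counts in library 1 (median 8.68%) and from 0.410% to 38.5% in library 2 (median 20.9%) among the 56 and 40 goblet cells with under 100 Paneth counts. In library 1, 7 of these 56 had under 10 Zg16 counts, with a median of 23 rule counts and 4 Tff3 counts, and none of the 40 in library 2 did. Tff3 ran with Zg16, with Spearman correlations of 0.904 and 0.710 across the 56 and 40 cells, which share a library and differ in depth. Spink4 did not, at -0.211 and -0.093. Cells with more Zg16 also had a smaller share of enterocyte counts (-0.335 and -0.435) and of mitochondrial counts (-0.494 and -0.571). These are shares of 1 total in each cell.

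Some genes were counted in a fraction of goblet cells. Ido1 had a count in 13 of 56 and 20 of 40, and those cells had a median Zg16 share of 22.1% and 26.5%, against 5.44% and 15.3% in cells without it. Cells with an Ido1 count also had more counts in all, with medians of 2323 and 2879.5 against 1704 and 1883.5, and the part of depth was not tested. Mptx1 had a count in 16 of 56 and 4 of 40. Its cells had median Zg16 shares of 4.64% and 15.8%, against 9.96% and 21.01% in cells without it. Counts of both genes were found in 3 cells of library 1 and 1 of library 2. In library 2, 97.4% of the Mptx1 goblet counts came from 3 cells.

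Defensins and lysozyme, the products of Paneth cells, were concentrated in 5 of the 101 cells that passed the rule. Paneth cells sit at the crypt base and secrete alpha-defensins, lysozyme and phospholipase A2. Of 20 measured genes of the Paneth list 18 were tested. All 18 were higher in goblet cells over other cells (6.88% over all genes), with a median log2 fold change of 9.90. Only 7 were still tested with the 5 cells left out, so most passed the filter on low counts through those cells. Their direction was thereby set in advance, and the 18 do not describe goblet cells at large. The 3 cells of library 1 and 2 of library 2 with at least 100 counts over this list held 94.4% and 96.0% of all its counts in kept cells. No other kept control cell reached 100, the highest standing at 52 and 37.

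These 5 cells had 2971, 2875, 1148, 9169 and 188 Paneth counts, which is 44.7%, 44.7%, 30.9%, 47.9% and 15.4% of their totals. Their rule counts were 34, 40, 10, 74 and 107. In all 5, Muc2 (4 to 30 counts) and Spink4 (6 to 47 counts) together were enough to pass. The 3 of library 1 had no count of Fcgbp or Clca1, and the fourth cell had 4 of Fcgbp and 0 of Clca1. Zg16 had 0 or 1 count in each of the 5, against medians of 158.5 and 398 in the remaining goblet cells. Lyz1 had 191, 212, 23 and 1831 counts in the first 4 and none in the last, which had 118 counts of Defa24, 33 of Clca1 and 22 of Fcgbp. The first 4 passed the rule, but by these values the name goblet does not describe them, while the last had all 4 rule genes beside Defa24.

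With the 5 cells left out, 56 and 40 goblet cells remained and 7179 genes were tested, of which 464 (6.46%) were higher and 468 (6.52%) lower. This comparison was added after the values were seen. Of the Paneth list 7 were then tested and 6 were higher, with a median of 4.67. Lyz1 moved from 3339 and 18690 CPM against 16.6 and 16.9 with all goblet cells to a log2 fold change of 1.80 without the 5 cells, which did not pass, and Lyz2 to 1.52. Pla2g2a, Ang4, Defa23, Defa25, Defa5 and Defa20 fell under the filter on low counts, as did Rnase1, which was among the 20 largest increases with all cells. The log2 fold changes of Zg16, Tff3 and Agr2 without the 5 cells were 10.45, 10.75 and 9.41.

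**Figure D4:**
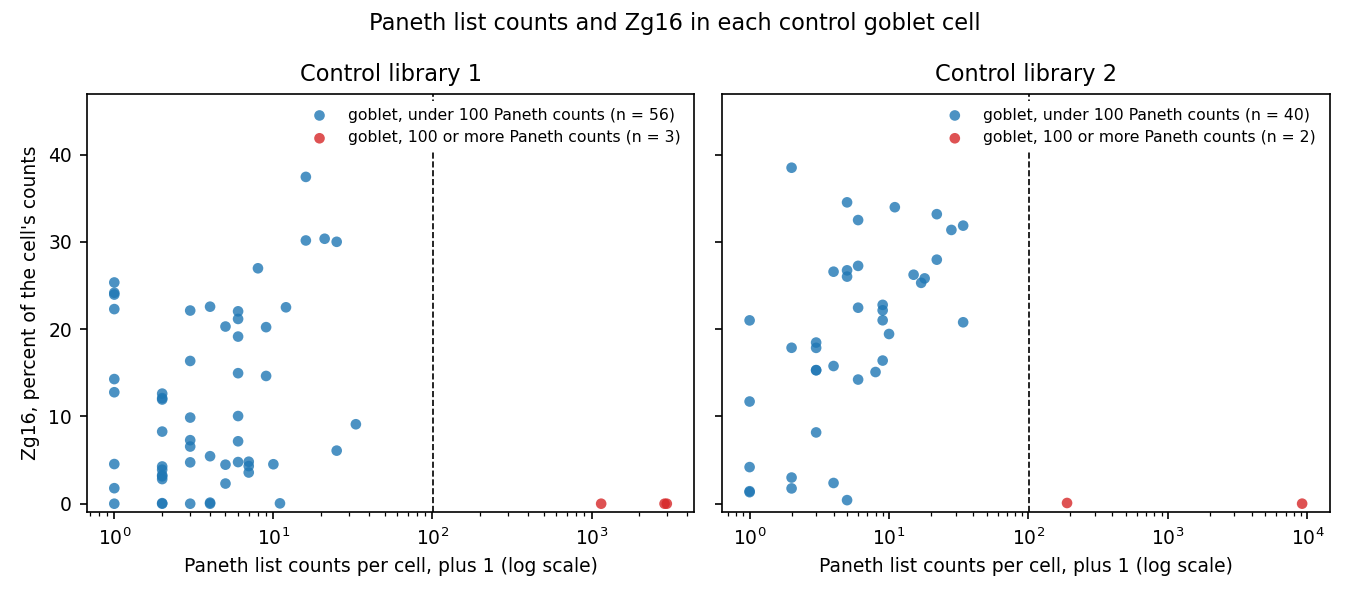
Counts over the Paneth list (x, plus 1, log scale) against the Zg16 share of counts (y, percent) in each control goblet cell, by library, with a dashed line at 100 Paneth counts. The 5 cells to the right of the line have almost no Zg16, and the 96 to its left span 0 to 32 and 0 to 33 Paneth counts at all Zg16 shares.

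Some Paneth-list genes were counted in ordinary goblet cells. Clps, the pancreatic colipase gene, had 141 and 189 counts in 27 of 56 and 31 of 40 of them, and only 45.4% and 41.8% of its counts in kept cells came from the 5 Paneth-rich cells. Its log2 fold change was 9.55 with all goblet cells and 8.73 without the 5. Defa24 had 77 and 59 counts in 20 and 11 ordinary goblet cells, at most 21 and 15 a cell, and 35 and 36 counts in 21 and 11 other cells. Itln1, an intelectin, had 14 and 3 counts in 11 and 1 ordinary goblet cells.

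Members differed in how their counts stood to Defa24 in ordinary goblet and in Paneth-rich cells. Per 100 counts of Defa24 the Paneth-rich cells had 42.5 and 59.1 counts of Defa23 and 17.9 and 74.6 of Lyz1. The ordinary goblet cells had 2.60 and 1.69 of Defa23 and 7.79 and 11.9 of Lyz1. Gm15284 stood at 86.7 and 74.3 in the Paneth-rich cells and at 93.5 and 83.05 in the ordinary ones. Defa25 stood at 4.99 and 7.62 in the Paneth-rich cells and at 3.90 and 6.78 in the ordinary ones, on 3 and 4 counts. Itln1 stood at 13.2 and 15.7 against 18.2 and 5.08, on 14 and 3 counts. Defa21 and Defa22 had the same counts in every class, 4 and 14 in the Paneth-rich cells. Reads may be split among near-identical defensin genes or counted for more than 1 of them, which was not tested. Single defensins, sums over the Paneth list and counts of its members are therefore uncertain.

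At least 3 counts over the Paneth list were found in 32 of 59 goblet cells of library 1 (54.2%, exact 95% interval 40.8 to 67.3) and 28 of 42 of library 2 (66.7%, 50.5 to 80.4). In other cells the share was 6 of 715 (0.839%) and 4 of 473 (0.846%). Without Clps and Nupr1 it was 16 and 11 goblet cells (27.1% and 26.2%) and 5 and 4 other cells. After thinning each cell to 1000 counts, with the full list, it was 18 and 18 goblet cells (30.5% and 42.9%) and 2 and 3 other cells. Intervals cover counting error only, and the sums may hold a count more than once where defensin genes are near-identical.

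Counts of Zg16 also appeared outside goblet cells. Among other cells 132 of 715 (18.5%, 15.7 to 21.5) and 100 of 473 (21.1%, 17.5 to 25.1) had at least 1, or 10.5% and 12.5% after thinning. They held 169 and 197 counts, at most 4 in a cell of library 1 and 38 in one of library 2. Before TMM scaling that is 115 and 179 CPM, which is 0.100% and 0.0996% of the 114837 and 179610 CPM in goblet cells. Tff3 in other cells was at 0.0869% and 0.0732% of its goblet level, and Agr2 at 0.149% and 0.257%.

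Barcodes too shallow to be kept carried more Zg16 for their counts. Those of at least 100 and under 500 counts with under 4 rule counts had 842 and 1131 CPM of Zg16, above other kept cells and far under goblet cells. A Zg16 count was found in 14.8% and 15.2% of them, against 18.5% and 21.1% of other cells, which are deeper. The highest had 16 and 47 counts, and under 4 rule counts can be a larger share of so shallow a barcode. The enterocyte gene Apoa1 was at 6188 and 6552 CPM in these barcodes and at 6070 and 6043 CPM in other cells, against 1215 and 251 CPM in goblet cells. A further 132 and 53 barcodes that were not kept had at least 4 rule counts, at medians of 390 and 299 counts, so goblet-type transcripts were also present in barcodes left out for depth.

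The proportions between goblet genes differed from gene to gene in these barcodes. Per 100 counts of Zg16 there were 18.4 and 20.03 of Tff3 in goblet cells, 15.98 and 14.7 in other cells, and 16.055 and 16.015 in the shallow barcodes. For Fcgbp the values were 27.3 and 24.6, 29.6 and 28.9, and 15.1 and 18.2, where the rule caps Fcgbp outside goblet cells. Agr2 was at 2.79 and 1.58 in goblet cells and 4.14 and 4.06 in other cells, on 7 and 8 counts in the latter. Ccl6 was at 1.67 and 1.38 in goblet cells and 2.96 and 3.05 in other cells, on 5 and 6 counts. The Paneth-rich cells had 17 and 56 counts of Tff3 beside 0 and 2 counts of Zg16. Whether the Zg16 counts of other cells are free RNA was not tested.

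Near-identical barcodes were looked for among goblet cells of 1 library. In library 1, 2 of 1612 pairs had a chi-square per gene under 1 (0.619 and 0.944, median 11.6), 1 pair with 434 and 425 rule counts and 1 formed by the 2 Paneth-rich cells with 2971 and 2875 Paneth counts. In library 2 none of 786 pairs did, the lowest being 1.57. Counts that agree within sampling noise can be 1 cell read under 2 barcodes, so the 3 Paneth-rich cells of library 1 may be 2. With 1 barcode of each such pair left out, 458 genes were higher and 460 lower. The Scrublet doublet caller marked 3 and 6 control cells, 3 and 4 of them goblet cells.

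The same rule was applied to the Lats-deleted libraries, where it was met by 3 of 726 kept cells (0.413%, 0.0850 to 1.20) and 84 of 1289 (6.52%, 5.23 to 8.01), against 7.62% (5.85 to 9.72) and 8.16% (5.94 to 10.9) in the control libraries. The mean difference was -4.42 percentage points, and the two-sided exact permutation test over 6 splits gave p = 0.33, the smallest it allows. Kept cells were deeper in the Lats-deleted libraries, with medians of 3715.5 and 3848 counts against 1708 and 1995. After thinning all cells to 1000 counts the shares were 7.11% and 7.57% against 0.275% and 2.10%. Without Lats-deleted library 2 the difference was -7.48, and without Lats-deleted library 1 it was -1.37.

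The cells that passed in Lats-deleted library 2 differed from control goblet cells in the genes they carried. Their median was 8 rule counts and 0 counts of Zg16. Clca1 had a count in 79 of the 84 and Fcgbp in 54, but Muc2 in 6, Zg16 in 5 and Tff3 in 14. In the control libraries Muc2 had a count in 57 of 59 and 41 of 42 goblet cells. A count of at least 3 of the 4 rule genes was found in 9 of the 84, and in 52 of 59 and 41 of 42 control goblet cells. As shares of kept cells that is 0.698% (0.320 to 1.32) and, in Lats-deleted library 1, 0.275%, against 6.72% (5.06 to 8.72) and 7.96% (5.77 to 10.6) in controls. This measure was added after the values were seen and was not tested.

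**Figure D5:**
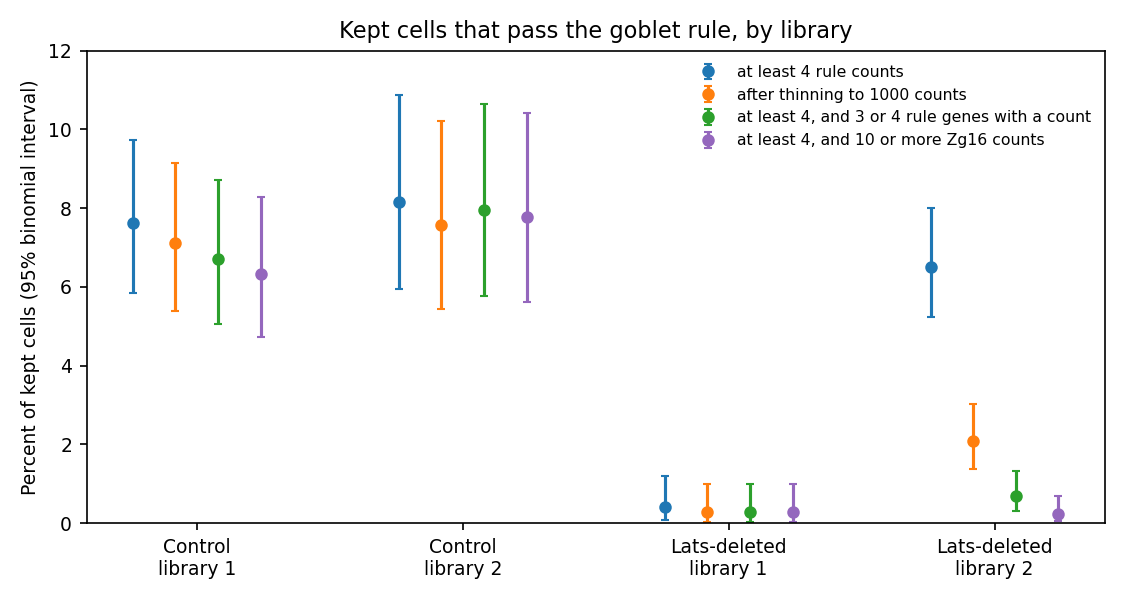
Percent of kept cells (y) in each library (x) that pass the goblet rule, that pass it after thinning to 1000 counts, and that also have counts of 3 or 4 rule genes or 10 or more Zg16 counts, with exact 95% intervals. The 2 control libraries stay between 6.33% and 8.16% by each measure, while Lats-deleted library 2 goes from 6.52% to 0.233%.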

How the data were processed

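Single-cell mRNA was measured by inDrop v2 in 2 control and 2 Lats-deleted libraries, per the labels. Each library has 1 table of deposited counts, in which lines are barcodes and columns are genes, per the file headers. All were whole numbers, and totals differed between libraries. The tools named, without their roles, were RSEM 1.3.0, SAMtools 1.3.1 and Bowtie 1.1.1.1, with the build mm10, per the submitters' processing notes. It is not given in the sources used here if a count is a molecular identifier or a read. All files held 25289 gene columns, of which 24601 matched a GENCODE M21 symbol (GRCm38), the source of coordinates.

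Counts were summed per library over goblet cells and over other kept control cells. After filterByExpr and TMM scaling, the quasi-likelihood test of edgeR 4.0.16 (R 4.3.3) compared these 4 sums with the library as a block, because both classes of a library come from 1 sample. Genes were called at a Benjamini-Hochberg adjusted p under 0.05. The fit left 1 residual degree of freedom and gave every gene 1 shared spread (TMM factors 0.952 and 0.770 for goblet and 1.15 and 1.19 for other cells, a common dispersion of 0.0548 and infinite prior degrees of freedom), so a gene held by a few cells gets the same spread as the rest. The fit was also run on simulated data in which every gene had the same spread, which cannot test genes held by a few cells. Clusters used 2000 variable genes without the 4 rule genes, 30 principal components, 15 neighbours and Leiden resolution 1 (scanpy 1.11.5, leidenalg 0.10.2). A fold against a class with no count uses a floor of 3 counts over both libraries, and a class with 1 to 3 counts has a ratio of sums with an exact 95% counting interval. Shares have exact Clopper-Pearson intervals. Pairs of barcodes were compared over genes with at least 10 counts in sum.

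The members and the 19 gene lists were chosen with earlier results of these data known. Of 411 listed genes 404 had a column. Named genes are the 4 rule genes, Tff3 and Zg16, the 20 called genes most raised and the 6 most lowered that had 100 CPM or more in both sums of the higher class, no overlap between classes and no predicted gene model name, up to 6 members of each list by p, all secretory lineage factors, and the 10 genes with the highest share of goblet counts. Added after seeing the values were the 20 largest increases without the Paneth-rich cells, and Lyz1, Lyz2, Ang4 and Mmp7. Alternatives were the fit without the block, DESeq2 1.42.0 and its size factors, no filter, other cell thresholds, cells with Paneth counts left out, Scrublet doublets (expected share 5%) left out, and each library left out. A few genes that the rule names are not reported here.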

Additional observations from a re-analysis of the deposited data

How the results depend on the processing

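Counts of genes higher and lower in goblet cells (476 and 488) stayed within 1.5 times with DESeq2 size factors, with rule genes left out of totals, with at least 8 rule counts, with other cells limited to 0 rule counts, without the 5 Paneth-rich cells, without near-identical barcodes and without Scrublet doublets. Both classes of a library come from the same sample, so the library was the replicate block; with no replicate block the counts were 545 and 536, and among the genes named the calls of Sct and Cck were lost. Without a filter on low counts 293 genes were higher and 660 lower. With at least 2000 counts per cell 231 were higher and 125 lower, and with DESeq2 268 and 176. Leaving out the 60 goblet cells with at least 3 Paneth counts gave 120 and 254, from fewer cells. Without either control library there is no residual degree of freedom, so no test was made. Among single genes, 9 values changed sign, all of Hes1, Sct, Lgr5, Ccna2 or Ccnb1. Hes1 was -0.053 and Sct -0.17 without cells of at least 3 Paneth counts, where Ccna2 was -0.89. With 1 control library left out, the log2 fold changes ranged from -0.23 to 1.54 for Hes1, from -0.64 to 4.60 for Sct, from -4.99 to 1.40 for Lgr5 and from -0.49 to 2.14 for Ccnb1. Lgr5 was -0.20 without the 5 Paneth-rich cells and -0.11 with DESeq2. The cause of these changes was not tested. The share of goblet cells with Paneth counts (59.4% over both libraries) was 86.1% at 1 count, 21.8% at 10 counts, 35.6% after thinning and 26.7% without Clps and Nupr1, and 54.2% to 66.7% with 1 library. The difference in the share of cells passing the rule was -6.15 after thinning, -5.48 with at least 8 rule counts and -5.76 with at least 2000 counts per cell, and -1.37 to -7.48 with 1 library left out.

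The 36 Atoh1 counts and the 40 Spdef counts limit what can be said of single cells. Depth also limits genes such as Gfi1, Dll1 and Insm1, which were under the filter. With 2 libraries a group an exact permutation p cannot go under 0.33.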
